A study of Mus musculus with 4 samples.

Results

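The 34 genes described here are regulators of the eye field and anterior forebrain, other neural and neural crest regulators, genes of neuronal structure, synaptic and adhesion genes, and a marker of astrocytes. They were chosen by gene symbol with the FPKM values of this data set already known, and all 34 were found among the 24339 genes of the deposited table. The 4 libraries hold polyadenylated RNA of mouse kidney mesenchymal nephron progenitors that were sorted by flow cytometry for GFP. Both lines make a fusion of GFP and Cre recombinase. In Six2TGC, with 2 libraries, the fusion comes from a bacterial artificial chromosome (BAC) transgene. In Six2Cre, also with 2 libraries, it is knocked in at Six2 behind a T2A peptide on 1 of the alleles (Six2 Cre/+). The name of the deposited table gives the stage as E18, and no line without GFP-Cre is among the samples. Whether the libraries of each line are from different animals is not stated in the labels, and the tests measure the spread between these libraries. FPKM is the number of fragments per kilobase of transcript, scaled to the mapped fragments of the library.

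Six3 is a homeobox gene of the anterior neural plate, where it acts with Rax, Pax6, Lhx2 and Otx2 to set up the forebrain and the eye field. Neurons later switch on RNA-binding proteins of the ELAVL family, neurofilaments and tubulins of the axon, and the proteins of the synapse, among them the neurexins and their partners. Several genes with neuronal names are also used outside the nervous system. Ncam1, which encodes a neural cell adhesion molecule, is a known surface marker of the condensed kidney mesenchyme, and the protein of Basp1 is a known corepressor partner of the kidney regulator WT1.

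Six3 reached FPKM 107 and 106 in Six2TGC, against a listed 0 in each Six2Cre library, and the question was whether neural genes accompany it. The 7 eye-field and forebrain regulators were near or at 0 in both lines, and the highest value among them was FPKM 0.553, in a Six2Cre library. A small number of genes named for neurons stood apart in Six2TGC, in both directions. Nxph1, Pianp, Basp1 and Nxph3 were higher, and Elavl4, Nefl, Nefm and Dcx were lower. Of 8 markers used to check for neurons, 7 stayed under FPKM 1 in every library, and the exception was Nefl. Elavl4 and Dcx, above FPKM 1 in every library, were not among these markers, nor was Nefm. Of the 34 genes, 22 were below FPKM 1 in every library, and 4 of them (Otx2, Nkx2-1, Sox2 and Sox10) were listed at 0 in all 4.

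**Figure D1:**
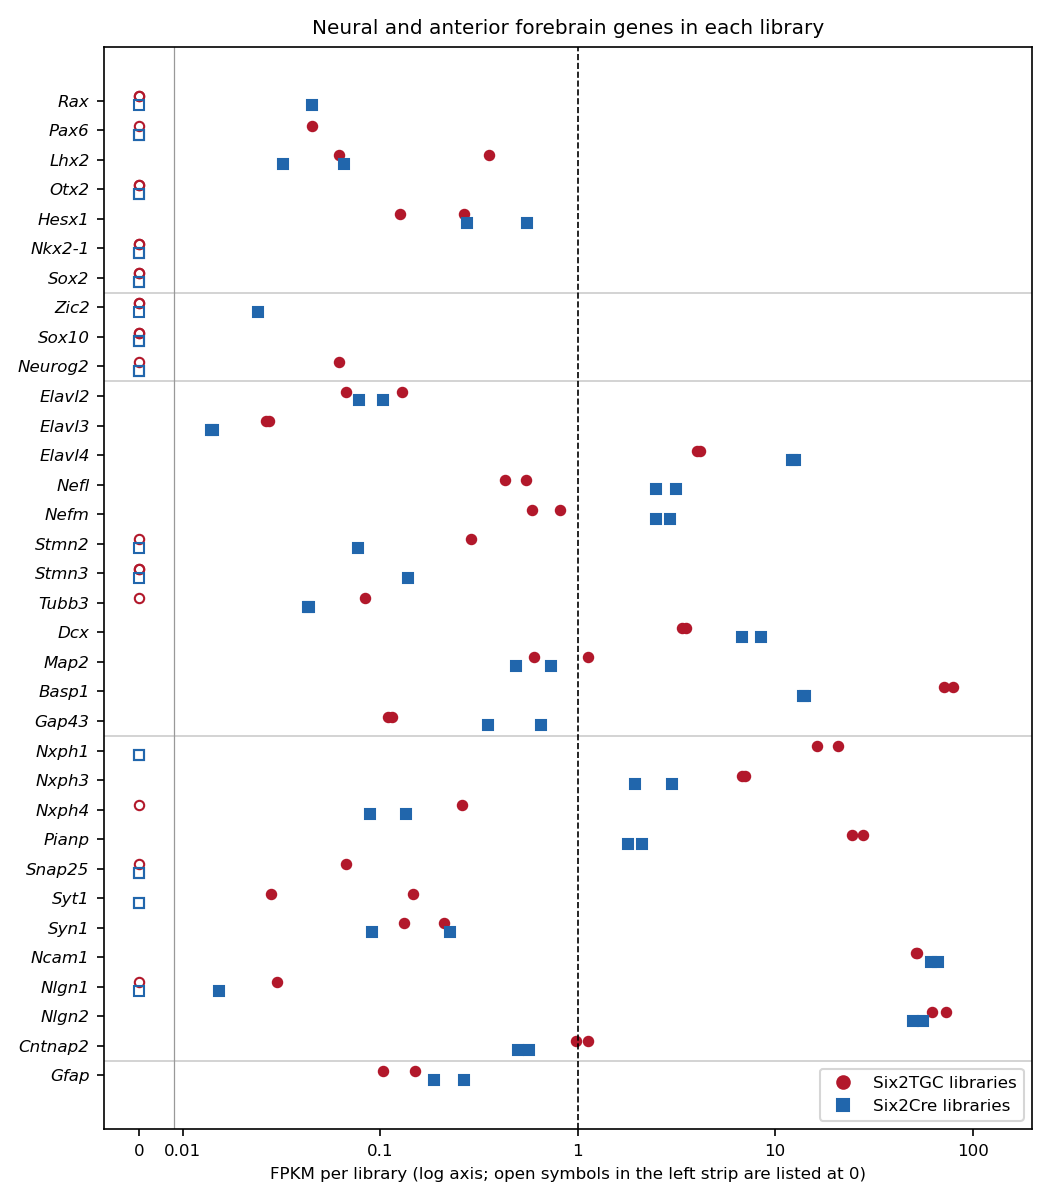
FPKM of the 34 genes in each library on a log axis, Six2TGC as circles and Six2Cre as squares, with classes separated by grey lines, a dashed line at FPKM 1 and values listed at 0 as open symbols on the left. The eye-field and other regulators all lie left of the dashed line, and Nxph1 is the gene with both Six2TGC libraries above 10 and both Six2Cre libraries at 0.

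The libraries of a line resembled each other more than those of the other line, with correlations across tested genes of 0.982 within Six2TGC and 0.984 within Six2Cre against 0.948 to 0.952 between lines (genes are not independent replicates). Relative to Six2TGC replicate 1, depth estimated from genes with FPKM up to 0.4 was 0.958 in Six2TGC replicate 2, 1.85 in Six2Cre replicate 1 and 1.88 in Six2Cre replicate 2, so low values were measured more coarsely in Six2TGC. Six2TGC replicate 1 stood apart in sex-linked transcripts, with Xist at FPKM 0.0107 and the Y-linked Ddx3y at 12.7, against Xist at 56.7 to 75.7 and Ddx3y listed at 0 in the other 3 libraries. All 8 progenitor markers checked were above FPKM 1 in every library, but their levels differed between lines. Of them, 1 was called higher in Six2TGC, Six2 at 749 and 816 against 545 and 533 in Six2Cre. Another 5 were called lower and 2 had no call, where 24.3% of all tested genes were called. Among the lower, Cited1 stood at 109 and 94.6 in Six2TGC against 907 and 878 in Six2Cre. Traf1 stood at 4.10 and 1.41 in Six2TGC against 87.5 and 85.4 in Six2Cre.

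Among the eye-field and forebrain regulators, Rax, a homeobox gene needed for eye formation, was listed at 0 in both Six2TGC libraries and at 0.0452 and 0 in Six2Cre. Pax6, a master regulator of eye development, stood at 0.0450 and 0 in Six2TGC against 0 in both Six2Cre libraries. Its listed locus overlaps Elp4, a gene at FPKM 2.82 to 3.99, so stray reads of the neighbour could not be separated. Both regulators were thus seen in a single library each, and in opposite lines.

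Lhx2, a LIM homeobox gene of the eye field and cortex, stood at 0.356 and 0.0620 in Six2TGC against 0.0321 and 0.0652 in Six2Cre, so the lines overlapped. Hesx1, a repressor gene of the anterior neural plate and pituitary, was the highest of the class. It stood at 0.127 and 0.265 in Six2TGC against 0.553 and 0.274 in Six2Cre, and all values of Six2TGC lay below those of Six2Cre. Otx2, which specifies forebrain and midbrain, Nkx2-1, a regulator of the ventral forebrain, thyroid and lung, and Sox2, a SOX factor of neural stem cells, were listed at 0 in all 4 libraries.

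Of the other regulators, Zic2, a zinc finger gene of the forebrain midline, was above 0 in a single library, Six2Cre replicate 2, at 0.0242. Neurog2, a proneural gene that drives neuron formation, was above 0 in Six2TGC replicate 1 alone, at 0.0616. Sox10, the defining regulator of neural crest and Schwann cells, was listed at 0 in all 4 libraries, as was the crest gene Foxd3.

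Low values were followed further on a grid of steps. Each value was multiplied by the relative depth of its library. The low genes above 0 in at least 2 libraries numbered 12. For 11 of them the scaled values were whole multiples of a common step (within 0.15 of a step). Such a step is what 1 fragment, or a fixed small number of them, would give. The step tried for a gene was its lowest scaled value above 0 or a small whole-number part of it, so that value fitted by construction. With several steps tried, a gene above 0 in few libraries can also fit by chance. How often that happens was not computed, so nothing is read from the count of 11. The depths came from genes with FPKM up to 0.4, Elavl3 and Lhx2 among them, so the grid is no separate check of the depths. Lhx2 came to 6 steps and 1 step in Six2TGC and to 1 and 2 steps in Six2Cre. Elavl3, a pan-neuronal ELAVL gene, came to 1 step in each of the 4 libraries, so its FPKM of 0.0263 and 0.0275 in Six2TGC against 0.0142 and 0.0140 in Six2Cre followed the depths and the lines did not differ in steps. Gap43, a growth cone protein gene of regenerating axons, came to 1 and 1 steps in Six2TGC and 11 and 6 in Six2Cre. Hesx1 came to 1 and 2 steps in Six2TGC and 8 and 4 in Six2Cre, whose libraries were deeper. These genes did not enter the test.

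The test across all genes used limma on log2(FPKM + 1), kept genes whose mean FPKM was 1 or more, and called them at a Benjamini-Hochberg adjusted p under 0.05. It took in 10 of the 34 genes, and the other 24 were too low. Of the 10, 5 were called higher and 5 lower in Six2TGC, where the test called 24.3% of 11917 genes, 10.8% higher and 13.5% lower. The libraries of the lines did not overlap for any of the 10, as for 65.9% of all tested genes. Nothing is read from these counts, since the genes were listed with the same values known and a gene such as Nefl passed the filter through the line in which it is high. In the authors' deposited table, 8 of the 11 members tested there had q under 0.05, against 13.5% of all genes tested there.

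**Figure D2:**
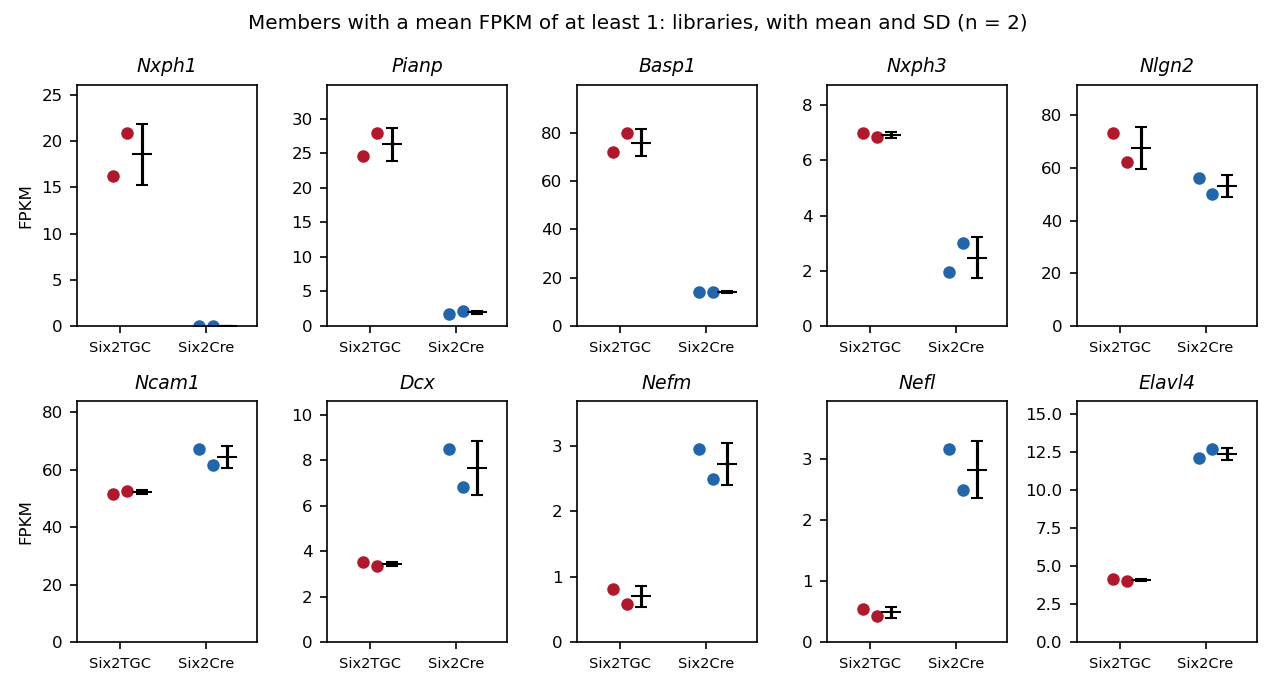
FPKM in each library (points, Six2TGC left and Six2Cre right) with the mean and SD of the 2 libraries beside them for the 10 genes that entered the test, each on its own axis from 0. The top row holds the genes higher in Six2TGC and the bottom row those lower, and no pair of lines overlaps.

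The start regions of 5 of these genes are shown because they are the largest changes in each direction that have a RefSeq entry at the start listed in the table. Each runs from 250 bases before to 50 bases after the RefSeq start on GRCm38.p6, 5′ to 3′ on the gene's strand, with the transcribed 50 bases in capitals. Nxph1 (chr6:8949769-8950068, plus strand), Pianp (chr6:124996470-124996769, plus strand) and Basp1 (chr15:25413715-25414014, minus strand) were higher in Six2TGC. Elavl4 (chr4:110351862-110352161, minus strand) and Dcx (chrX:143933170-143933469, minus strand) were lower.
Nxph1: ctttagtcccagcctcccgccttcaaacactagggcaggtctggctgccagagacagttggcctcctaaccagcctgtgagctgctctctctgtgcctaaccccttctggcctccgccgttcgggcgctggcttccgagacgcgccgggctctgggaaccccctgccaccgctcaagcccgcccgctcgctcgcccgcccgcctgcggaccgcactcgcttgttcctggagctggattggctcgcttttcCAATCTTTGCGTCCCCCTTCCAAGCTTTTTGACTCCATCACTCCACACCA
Pianp: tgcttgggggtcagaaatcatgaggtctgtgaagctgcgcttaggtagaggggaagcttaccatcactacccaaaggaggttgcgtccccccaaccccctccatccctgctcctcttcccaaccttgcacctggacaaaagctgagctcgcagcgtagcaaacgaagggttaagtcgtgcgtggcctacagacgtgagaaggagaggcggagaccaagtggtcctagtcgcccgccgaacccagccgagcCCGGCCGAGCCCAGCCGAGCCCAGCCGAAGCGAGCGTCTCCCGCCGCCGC
Basp1: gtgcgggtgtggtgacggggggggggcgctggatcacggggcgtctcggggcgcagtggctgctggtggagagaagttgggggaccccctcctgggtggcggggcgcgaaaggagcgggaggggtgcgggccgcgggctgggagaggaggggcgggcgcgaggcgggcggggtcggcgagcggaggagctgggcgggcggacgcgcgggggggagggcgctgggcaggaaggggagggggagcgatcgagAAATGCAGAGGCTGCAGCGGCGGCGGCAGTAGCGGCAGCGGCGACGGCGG
Elavl4: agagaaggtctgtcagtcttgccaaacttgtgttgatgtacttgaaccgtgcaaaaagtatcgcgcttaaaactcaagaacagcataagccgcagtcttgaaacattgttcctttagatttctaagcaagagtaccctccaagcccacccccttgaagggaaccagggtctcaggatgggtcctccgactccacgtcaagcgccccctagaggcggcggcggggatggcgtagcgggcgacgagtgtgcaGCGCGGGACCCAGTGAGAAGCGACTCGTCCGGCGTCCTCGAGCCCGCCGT
Dcx: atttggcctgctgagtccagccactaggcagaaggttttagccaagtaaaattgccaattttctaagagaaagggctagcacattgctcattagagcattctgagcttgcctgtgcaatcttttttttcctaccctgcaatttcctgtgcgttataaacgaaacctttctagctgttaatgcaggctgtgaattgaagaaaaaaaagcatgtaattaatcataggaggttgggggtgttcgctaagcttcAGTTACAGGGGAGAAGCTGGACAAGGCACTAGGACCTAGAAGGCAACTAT

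At the starts listed in the table, the windows of the higher genes were rich in G and C, at 64.0% for Nxph1, 62.7% for Pianp and 78.0% for Basp1, where the median of all 32851 windows was 52.7% and the upper quartile 61.7%. They held 21, 22 and 38 CpG pairs against a median of 7. Of the lower genes, Elavl4 had 57.0% and 23 CpG pairs and Dcx 43.0% and 3, so the start regions of the lower genes were not alike. Other RefSeq starts of the same genes gave lower values: 54.0% and 53.3% with 6 CpG pairs each for Pianp, and 43.7% to 47.3% with 4 to 6 for Elavl4. Windows were found for 23 of the 34 members, 42 in all, since several genes have more than 1 start. On either strand, the SIX-type site TCANGTTTC was in none of the 42 member windows and in 1.08% of all windows. The homeodomain core TAATTA was in 6 windows, 2 each of Dcx, Elavl4 and Otx2, and in 5.29% of all windows. The 2 windows of Dcx overlap in part, as do those of Elavl4, which belong to another start than the one shown. In the Dcx window shown it lies at bases 212 to 217. The TCF/LEF core CTTTGAT was in the window of Stmn3 (3.73% of all). The left part of the RE1 element bound by REST, TTCAGCACC, was in a window each of Nlgn1 and Syn1 (0.371% of all), and its right part, GGACAGNGC, in none of the members (1.91% of all).

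Neurexophilins are small secreted glycoproteins that bind alpha-neurexins at synapses. Nxph1 reached FPKM 16.2 and 20.9 in Six2TGC, against a listed 0 in each Six2Cre library. The gene lies on chromosome 6 at 8950019 to 9248578 (mm10), away from the Six3 and Six2 locus on chromosome 17. Its mean in Six2TGC was 18.6 ± 3.32 (SD, n = 2), and its log2 change of 4.28 ± 0.159 (SE, on the FPKM + 1 scale) ranked 4th among the rises of the 11917 genes, after Six3 in 2nd place and ahead of Six3os1 in 7th. Since Six2Cre is at 0, the size depends on the value added before the logarithm: it was 5.24 with 0.5 and 7.53 with 0.1 in place of 1. In the whole table, 7 genes were at FPKM 1 or more in both Six2TGC libraries and at 0 in both Six2Cre libraries. Of these, 3 were genes of small RNAs, and the others were Six3, Nxph1, Srd5a2 (2.63 and 1.65 in Six2TGC) and the predicted gene Gm38671 (15.4 and 5.62). The converse held for 22 genes.

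The genes around Nxph1 did not share its pattern. On one side, Ica1 was lower in Six2TGC, at 2.11 and 1.79 against 3.41 and 4.63 in Six2Cre (log2 change -0.76, limma adjusted p = 0.0173, a call lost when either Six2Cre library was left out), and Glcci1 stood at 17.2 and 16.3 in Six2TGC against 12.9 and 13.9 in Six2Cre with no call (adjusted p = 0.0511). On the other side, AA545190 was listed at 0 in all 4 libraries and Ndufa4 stood at 275 and 312 in Six2TGC against 345 and 353 in Six2Cre, also with no call. These neighbours were looked up after the values of Nxph1 were seen.

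Nxph3, on chromosome 11 at 95509846 to 95514565, stood at 7.0 and 6.83 in Six2TGC against 1.95 and 3.01 in Six2Cre. It was 2.79-fold higher in Six2TGC (6.91 ± 0.119 against 2.48 ± 0.749, SD, n = 2), with a log2 change of 1.20 ± 0.170. Nxph4 was low and overlapping, at 0 and 0.260 in Six2TGC against 0.135 and 0.0890 in Six2Cre, and Nxph2 was listed at 0 in all 4 libraries. So 2 of the 4 neurexophilin genes were above FPKM 1. Nrxn2, a neurexin gene, moved the other way, at 12.2 and 9.81 in Six2TGC against 16.2 and 17.8 in Six2Cre (log2 change -0.59, limma adjusted p = 0.0120), a call lost when either Six2Cre library was left out. Nrxn3 stood at 0.302 and 0.403 in Six2TGC against 0.138 and 0.109 in Six2Cre.

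Pianp encodes a membrane protein that is a ligand of the immune receptor PILRα and is best known from brain. It lies on chromosome 6 at 124996720 to 125003097, and stood at 24.6 and 28.0 in Six2TGC against 1.79 and 2.13 in Six2Cre. The lowest Six2TGC library was far above the highest Six2Cre library, and the line means differed 13.4-fold (log2 change 3.21 ± 0.120, the 13th largest rise). Pilra, the gene of its receptor, was above 0 in a single library of each line, at 0.0653 in Six2TGC and 0.0322 in Six2Cre.

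Neuroligins are postsynaptic partners of the neurexins. Nlgn2, the form of inhibitory synapses, stood at 73.4 and 62.2 in Six2TGC against 56.3 and 50.1 in Six2Cre. The libraries did not overlap, but the gap was small, 1.27-fold (log2 change 0.34 ± 0.103). The call of Nlgn2 was lost without Six2TGC replicate 1, at a log2 change of 0.22 (limma adjusted p = 0.162), and without either Six2Cre library, at 0.42 and 0.26 (0.114 and 0.277), and the authors' deposited table gives q = 0.127. Nlgn1, the form of excitatory synapses, was at 0 and 0.0301 in Six2TGC against 0 and 0.0153 in Six2Cre.

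Ncam1 was among the most abundant of the 34 genes in both lines, at 51.6 and 52.6 in Six2TGC against 67.0 and 61.7 in Six2Cre. It was 1.24-fold lower in Six2TGC (log2 change -0.30 ± 0.0772). That call was lost when any of the 4 libraries was left out, with log2 changes of -0.36 to -0.24 (limma adjusted p from 0.0529 to 0.205), and the authors' deposited table gives q = 0.200. Cntnap2, a neurexin-like protein of the axon, stood at 1.13 and 0.977 in Six2TGC against 0.570 and 0.498 in Six2Cre. The lines did not overlap, but the mean was below the filter, and with a filter at FPKM 0.5, added after the values were seen, the log2 change of 0.42 had no call (limma adjusted p = 0.10).

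The machinery of transmitter release was near the limit. Snap25, a membrane fusion protein of the nerve terminal, was above 0 in Six2TGC replicate 2 alone, at 0.0674. Syt1, the calcium sensor of release, stood at 0.0280 and 0.146 in Six2TGC against 0 in both Six2Cre libraries, which came to 1 and 5 steps. Syn1, a vesicle phosphoprotein gene on the X chromosome, stood at 0.211 and 0.132 in Six2TGC against 0.0912 and 0.225 in Six2Cre, with overlapping lines, and its listed locus overlaps Araf and Timp1, both above FPKM 9.

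Of the 12 genes of neuronal structure among the 34, 5 were tested, and Basp1 was the single one called higher in Six2TGC. Basp1 encodes a lipid-anchored protein of the growth cone, and lies on chromosome 15 at 25363277 to 25413764. It stood at 71.9 and 80.0 in Six2TGC against 13.9 and 14.2 in Six2Cre. The line means of 76.0 ± 5.72 and 14.1 ± 0.221 (SD, n = 2) differed 5.40-fold, a log2 change of 2.35 ± 0.0839 and the 31st largest rise. Gap43, a growth cone protein often described with Basp1, went the other way at low level, with 0.109 and 0.114 in Six2TGC against 0.654 and 0.353 in Six2Cre.

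The ELAVL proteins bind AU-rich RNA and mark young neurons. Elavl4 stood at 4.16 and 4.04 in Six2TGC against 12.1 and 12.7 in Six2Cre. It was 3.02-fold lower in Six2TGC (log2 change -1.39 ± 0.107), and the libraries of each line were close to each other. Elavl2 was at 0.129 and 0.0673 in Six2TGC against 0.0780 and 0.103 in Six2Cre, and Elavl1, the widely expressed member of the family, had no call, at 16.3 and 20.1 in Six2TGC against 19.2 and 18.4 in Six2Cre.

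Nefl and Nefm encode the light and medium neurofilament chains and neighbour each other on chromosome 14, at 68083884 to 68087737 and 68119545 to 68131371. Nefl stood at 0.549 and 0.430 in Six2TGC against 3.16 and 2.49 in Six2Cre, 5.77-fold lower in Six2TGC (log2 change -1.36 ± 0.174). Nefm stood at 0.817 and 0.585 in Six2TGC against 2.95 and 2.50 in Six2Cre, 3.88-fold lower (log2 change -1.13 ± 0.170), and it lost its call when Six2Cre replicate 1 was left out, at -1.04 (limma adjusted p = 0.0581). All Six2TGC values of both genes were under FPKM 1 and all Six2Cre values above 2. The remaining chains lay in the same order at lower level: Ina stood at 0 and 0.0897 in Six2TGC against 0.335 and 0.332 in Six2Cre, and Nefh at 0 and 0.0348 in Six2TGC against 0.0539 and 0.106 in Six2Cre.

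Dcx, an X-linked gene whose protein binds microtubules in migrating neurons, stood at 3.52 and 3.38 in Six2TGC against 8.48 and 6.81 in Six2Cre. It was 2.22-fold lower in Six2TGC (log2 change -0.95 ± 0.138). The Six2TGC libraries, which differ in Xist, were close to each other for Dcx. Map2, a dendrite microtubule protein, overlapped between lines, at 0.598 and 1.12 in Six2TGC against 0.489 and 0.736 in Six2Cre. Tubb3, the tubulin used to stain neurons, did not pass 0.0841 in any library. Stmn2 was at 0.289 and 0 in Six2TGC against 0 and 0.0774 in Six2Cre, and Stmn3, its relative among microtubule-destabilising proteins, was above 0 in Six2Cre replicate 1 alone, at 0.138. Gfap, the intermediate filament of astrocytes, stood at 0.149 and 0.104 in Six2TGC against 0.188 and 0.265 in Six2Cre.

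**Figure D3:**
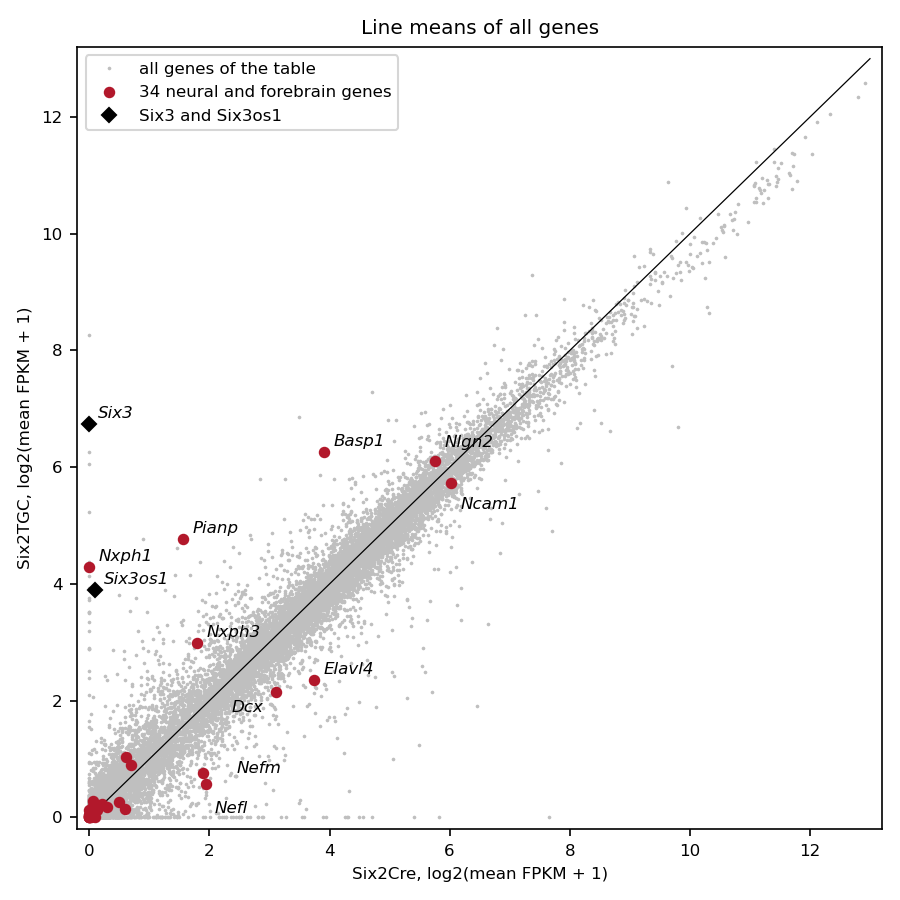
Line means as log2(mean FPKM + 1), Six2TGC on the vertical and Six2Cre on the horizontal axis, for all genes (grey), the 34 genes (red) and Six3 and Six3os1 (black diamonds), with a line at equal values. Nxph1 lies on the vertical axis below Six3, Pianp and Basp1 lie above the grey band, Elavl4, Nefl and Nefm lie below it, and most of the 34 genes sit near the origin.

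Sorted bulk RNA cannot tell fewer cells of a type from less RNA per cell. The 8 neuron markers checked summed to FPKM 1.45 and 0.994 in Six2TGC against 3.32 and 2.83 in Six2Cre, most of it Nefl in Six2Cre. That list leaves out Elavl4 (12.1 and 12.7 in Six2Cre), Dcx (8.48 and 6.81) and Nefm (2.95 and 2.50), so the sum depends on the choice of markers. Snap25, Syt1, Nefl, Stmn2 and Elavl3 are on it and also among the 34 genes, so it is not a separate check. Of the 8 markers, Slc17a6 was listed at 0 in all 4 libraries, and Rbfox3 stood between 0.129 and 0.153 in all 4. Gad1 stood at 0.415 and 0.173 in Six2TGC against 0.0224 and 0.0884 in Six2Cre. Schwann and crest markers summed to 2.40 and 2.15 in Six2TGC against 2.19 and 2.21 in Six2Cre, with 3 of 5 at 0 throughout.

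Kidney markers moved with the line. Over all tested genes, 24.3% were called, 10.8% higher and 13.5% lower in Six2TGC. Of 7 markers of early differentiating nephrons, 6 were higher and 1 lower in Six2TGC. Their sums were 220 and 237 in Six2TGC against 53.4 and 49.9 in Six2Cre. Of 8 progenitor markers, 1 was higher and 5 lower, with sums of 1477 and 1514 in Six2TGC against 2187 and 2109 in Six2Cre. Podocyte markers summed to 13.9 and 10.4 in Six2TGC against 6.39 and 7.24 in Six2Cre. Of 6 stroma markers, 2 were higher and 1 lower, with sums of 183 and 154 in Six2TGC against 150 and 137 in Six2Cre. Endothelial markers were low, and none was high enough for the test. For all 4 the Six2TGC values lay below the Six2Cre values. The lines did not overlap for 65.9% of all tested genes, counting both directions, a set that leaves these 4 out. The endothelial sums were 0.748 and 0.339 in Six2TGC against 2.62 and 3.95 in Six2Cre. In the authors' deposited table, Cdh5 and Tie1 of that list had q = 0.0110 and 0.0363. Of 5 markers of the ureteric epithelium, 2 were tested. Wnt11 was higher, at 4.84 and 3.87 in Six2TGC against 1.23 and 0.889 in Six2Cre. Krt8 was lower, at 0.842 and 1.20 in Six2TGC against 2.49 and 3.20 in Six2Cre. That call was lost when either Six2Cre library was left out. Among the untested, Calb1 stood at 0.188 and 0 in Six2TGC against 0.406 and 0.876 in Six2Cre. Gata3 stood at 0.125 and 0.261 in Six2TGC against 0.630 and 0.444 in Six2Cre, and Ret overlapped between lines. Blood and immune markers summed to 8.12 and 6.66 in Six2TGC against 3.94 and 5.57 in Six2Cre, and astrocyte markers to 0.698 and 0.586 in Six2TGC against 1.01 and 1.42 in Six2Cre. The part of these shifts in the levels of Basp1, Pianp, Elavl4 and the others was not tested.

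Wider lists of neural genes were counted in the same fit, leaving out the 34. Their median log2 changes are given beside the median of all tested genes, -0.03. Among 36 further anterior forebrain and eye regulators, 32 were too low to test and 17 were listed at 0 in all 4 libraries, including Six6, the closest relative of Six3, and Vax1. Six3 and its neighbouring noncoding gene Six3os1 (12.4 and 15.3 in Six2TGC, 0.0706 and 0.0594 in Six2Cre) were the higher members. The other tested genes, Emx2 (log2 change 0.38) and Prox1 (0.17), had no call in limma (adjusted p = 0.15 and 0.551). The median of the 4 was 2.09, but it counts Six3 and Six3os1. The question starts from Six3, so nothing is read from that median.

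Of 43 other regional and proneural regulators, 4 were tested and 1 was higher and 1 lower, with 24.3% of all genes called, and the median was 0.35. Pou3f1, a POU-domain gene of neural and Schwann cell development, was 10.8-fold higher in Six2TGC, at 8.04 and 8.35 against 0.988 and 0.523 in Six2Cre (log2 change 2.40 ± 0.168, limma adjusted p = 1.25e-04). Pax2, which is also a kidney progenitor regulator, was lower at 149 and 167 in Six2TGC against 231 and 216 in Six2Cre (-0.50, 5.94e-03), a call lost without Six2Cre replicate 1.

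Neural progenitor genes were higher in 6 of 13 tested with 0 lower, against 10.8% and 13.5% of all genes, and their median was 0.51. Metrn, which encodes a secreted glial differentiation factor, stood at 46.1 and 47.1 in Six2TGC against 22.2 and 22.1 in Six2Cre (log2 change 1.04, limma adjusted p = 1.41e-04). Slc1a3, a glutamate transporter gene of radial glia, rose by 1.02, Id4, which encodes an inhibitor of bHLH factors, by 0.88 and the receptor gene Notch1 by 0.86. Nes, Vim and Cdh2 had no call, and Sox1 was listed at 0 in all 4 libraries.

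Of 76 further synaptic and adhesion genes, 32 were tested, with 12 higher, 3 lower and 17 without a call (46.9% called, against 24.3% of all genes) and a median of 0.19. The largest rises were in cell-surface genes. Adgrl3, a latrophilin receptor gene, stood at 10.3 and 8.67 in Six2TGC against 2.16 and 1.77 in Six2Cre (log2 change 1.82 ± 0.143, limma adjusted p = 2.06e-04). Tenm4, a teneurin gene of the family that latrophilins bind, stood at 14.4 and 15.4 in Six2TGC against 5.36 and 5.0 in Six2Cre (1.36, 1.82e-04). The protocadherin genes Pcdh19 and Pcdh8 rose by 1.65 and 1.38, Pcdh19 to 2.40 and 3.11 in Six2TGC against 0.173 and 0.215 in Six2Cre.

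The 3 lower genes of that list were, besides Nrxn2, the adhesion gene Cadm1, at 14.1 and 15.4 in Six2TGC against 30.5 and 34.5 in Six2Cre, and Snap91, a clathrin adaptor gene of the synapse, at 27.4 and 30.8 in Six2TGC against 61.5 and 59.7 in Six2Cre. They are named because there are 3 of them, after their values were seen. Vamp2, Cplx2 and Rab3a, genes of transmitter release, had no call in limma.

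Of 49 further genes of neuronal structure, 26 were tested, with 7 higher, 2 lower and 17 without a call (34.6% called, against 24.3% of all genes) and a median of 0.12. Kif5c, a kinesin motor gene, was higher at 9.56 and 9.75 in Six2TGC against 3.12 and 4.18 in Six2Cre (log2 change 1.21, limma adjusted p = 1.26e-03). Dpysl3 and Map1b, microtubule regulators of growing axons, rose by 1.08 and 0.89, and Dclk1, a doublecortin-like kinase gene, by 0.57. The Dpysl3 call was lost without Six2Cre replicate 1, the Dclk1 call without Six2TGC replicate 1 or either Six2Cre library. Stmn1, a tubulin-binding protein of dividing cells, was lower at 460 and 463 in Six2TGC against 637 and 607 in Six2Cre, as was Uchl1 at 20.4 and 23.0 against 28.6 and 27.1 in Six2Cre. Under quantile normalization the log2 change of Stmn1 was -0.19 in place of -0.43, with the call kept. The Uchl1 call was lost without Six2TGC replicate 1 or either Six2Cre library, with log2 changes of -0.39 to -0.27, and the authors' deposited table gives q = 0.270.

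Among 21 neural crest and Schwann genes, 7 were tested, with 3 higher and 1 lower (57.1% called, against 24.3% of all genes) and a median of -0.00. The higher genes are also used elsewhere in the embryo: Sox9 (1.43), Pmp22 (1.42) and Snai2 (0.54). The Snai2 call was lost without Six2TGC replicate 1, at 0.33, without either Six2Cre library, with the replicate block (limma adjusted p = 0.0552) and in the authors' deposited table (q = 0.0521). Mbp, a myelin protein gene, fell by 0.71 and lost its call without either Six2Cre library. Of 15 glial genes, 6 were tested, with 2 higher, Pdgfra (1.10) and Cspg4 (1.08), and 2 lower, Mbp and Cnp (-0.45), which is 66.7% called against 24.3% of all genes, and a median of -0.15. The calls of Pdgfra without Six2Cre replicate 1 and of Cnp without either Six2Cre library were lost. Mbp and Sox8 stand in both lists, and Pdgfra is also a stroma marker.

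REST is a repressor that keeps neuronal genes off in other cells through the RCOR and histone deacetylase complex. Rest was 1.47-fold higher in Six2TGC, at 25.7 and 27.1 against 18.2 and 17.8 in Six2Cre (log2 change 0.53 ± 0.0818, limma adjusted p = 4.18e-03), a call lost without Six2Cre replicate 2. Of all 14 genes of the complex, Rest was the higher member, the phosphatase gene Ctdspl (-0.52) the lower, and 12 had no call, so 14.3% were called against 24.3% of all genes, and the median was 0.04. The Ctdspl call was lost without either Six2Cre library.

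**Figure D4:**
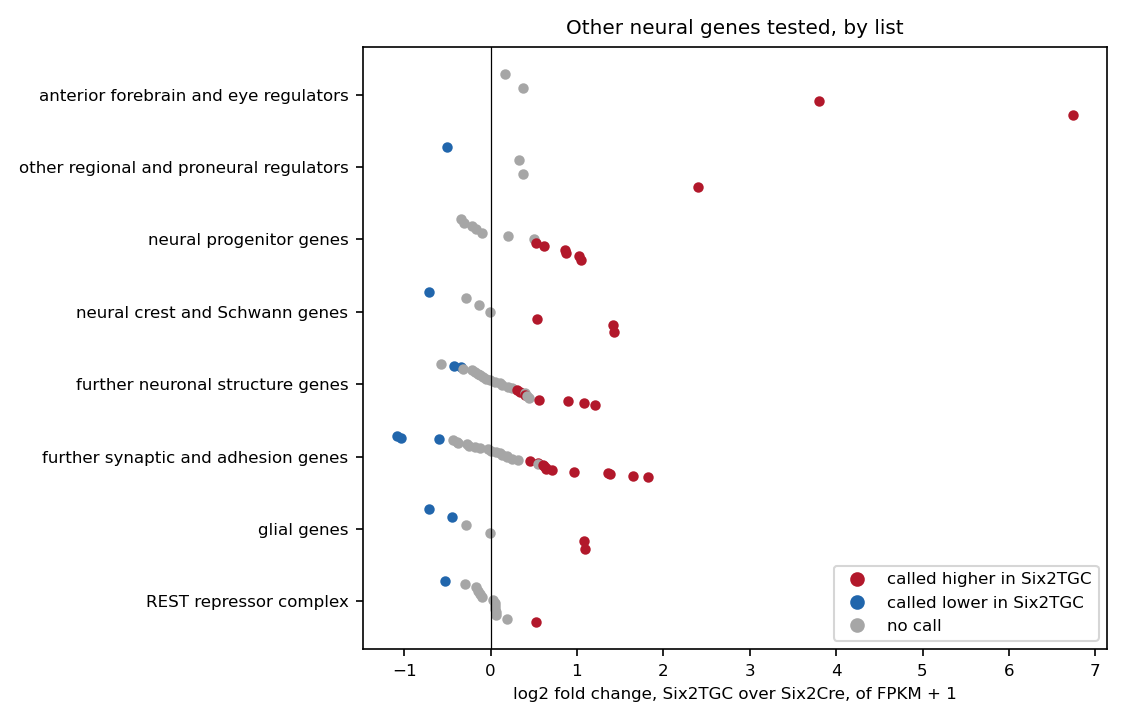
Log2 fold change, Six2TGC over Six2Cre on the FPKM + 1 scale, of each tested gene in the 8 wider lists, with genes called higher in red, called lower in blue and without a call in grey. Six3 and Six3os1 are the far points of the first list at 6.74 and 3.80, and 12 of the 32 synaptic and adhesion genes are red.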

How the data were processed

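The 4 libraries were grouped by their titles. Per the submitters' processing notes, reads were aligned with HISAT2 and compared with Cuffdiff on mm10. For versions, trimming, annotation and strand use the sources used here give nothing, and overlapping genes cannot be separated. The authors deposited an FPKM value per gene and library with line means, and a p-value and q-value of their own comparison. Of the table, 24339 genes were used and 1 line was not. Coordinates were raised by 1 at the start.

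The test was limma (version 3.58.1, R version 4.3.3), two-sided, on log2(FPKM + 1) of genes whose mean FPKM was 1 or more, with trend and robust empirical Bayes, on all 4 libraries without covariates, at a Benjamini-Hochberg adjusted p under 0.05. On 10 simulated data sets with 200 changed genes the fit found nearly all of them, but the share of false calls was above the threshold in each set, and an adjusted p just under the threshold is weak ground for a call. Effects are Six2TGC over Six2Cre, and on this scale they understate changes of low genes. Library numbers are consecutive within a line and far apart between lines, so any batch and the line cannot be told apart. A fold is the mean FPKM of one line over the other, left out where a line is at 0. FPKM holds no counts, so intervals and floors are not given. Relative depth is the most frequent ratio to Six2TGC replicate 1 among genes with FPKM up to 0.4, where 188 to 388 of 1564 to 1719 genes lay in the peak.

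The members and lists were chosen with earlier results of these data known. All 34 members were named, and of each wider list up to 4 called genes with the largest change, or all tested genes where under 4 were tested. Others were named after their values were seen, among them Nxph2, Nrxn2, Nrxn3, Pilra, the neighbours of Nxph1, the genes at 0 in Six2Cre, Ina, Nefh, Elavl1, Cadm1, Snap91, Stmn1, Uchl1, the kidney and endothelial markers and genes named without a call. Alternatives were other pseudocounts, filters and scalings, each library left out, a replicate block, another variance setting and the authors' own calls. Where a library is left out, its line's lone library is assumed to vary like the others. Motifs were searched with Python 3.11.15 in RefSeq windows.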

Additional observations from a re-analysis of the deposited data

How the results depend on the processing

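Of the 10 tested members, 7 kept their call and direction under every alternative that tested them, none of the 10 reversed, and Nefm, Ncam1 and Nlgn2 lost theirs under at least 1. Of 36 other called genes followed through the alternatives, 22 kept their call under every alternative that tested them and none reversed. Cited1 and Traf1 were not among those followed. Members called higher stayed at 4 or 5 under all alternatives. Members called lower numbered 5, and 3 where the mean FPKM had to reach 5 and Nefl and Nefm were no longer tested, and 3 to 4 with a library left out. The count over all genes, 2900, was 1637 in the authors' deposited table and 1010 to 2803 with a library left out, lowest without Six2Cre replicate 1 and 1143 without Six2Cre replicate 2. The cause of the difference between those libraries was not tested. Deviations of same-numbered libraries correlated at -0.0399, so the numbers do not pair them, and a replicate block gave 2713 called genes, 5 members higher and 5 lower. Across the alternatives, 5 to 13 synaptic and adhesion genes were called higher (12 in the main setting), 2 to 9 genes of neuronal structure (7), with 1 to 4 lower (2), and 5 to 6 neural progenitor genes (6). Without a filter, none of the 24 low members had a call in limma (adjusted p of at least 0.0694, for Gap43, and 4 of them at 0 in all libraries did not enter). TMM and quantile scaling moved the share of calls higher in Six2TGC to 50.3% and 51.8%, from 44.3%, and changed no call of a member.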

Other observations

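Receptors and ligands that meet latrophilins and teneurins at the cell surface were looked up after Adgrl3 and Tenm4 had been seen to be higher in Six2TGC. Flrt1, a gene of the FLRT proteins that latrophilins bind, stood at FPKM 11.7 and 12.8 in Six2TGC against 2.86 and 2.52 in Six2Cre, a log2 change of 1.85 ± 0.122 (limma adjusted p = 9.56e-05). Flrt3 stood at 6.44 and 7.63 in Six2TGC against 2.29 and 3.84 in Six2Cre (1.01 ± 0.200, 0.0125), a call lost without either Six2TGC library or without Six2Cre replicate 1. Flrt2 had no call, at 4.19 and 3.96 in Six2TGC against 2.61 and 2.88 in Six2Cre (0.44, 0.0514). The listed locus of Flrt3 is long and may hold other genes, and these 3 genes belonged to no list.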
